A study of Caenorhabditis elegans with 2 samples.

Results

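Nuclear hormone receptor genes were taken as all protein-coding genes of the WBcel235 assembly of Caenorhabditis elegans whose symbol starts with nhr-. There were 269 of them among 19973 protein-coding genes, with 167 on chromosome V, 33 on IV, 23 on I, 23 on X, 15 on II and 8 on III. Each was read for entries of the EFL-1::GFP peak lists at 3 kinds of place. These were the promoter (500 bp upstream to 100 bp downstream of any annotated transcript start), the 2 kb upstream of any start, and the gene's introns outside its own promoter. The data came from chromatin immunoprecipitation and sequencing of whole first-stage (L1) larvae of mixed sex, with 1 group of 2 libraries that the labels call biological replicates 1 and 2. Strain YL424 carries the unc-119(ed3) mutation and the inserted array vrIs68, in which the efl-1 promoter drives EFL-1 fused to GFP and FLAG, ending in the gene's own 3' UTR, beside a functional unc-119 copy. Age in hours was not given, no other genotype, stage or treatment was present, and the tagged protein came from an added transgene.

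Nuclear hormone receptors are transcription factors that pair a zinc-finger DNA-binding domain with a domain that can hold a small lipophilic ligand such as a steroid or a fatty acid. Nematodes carry a greatly expanded family, most of it derived from an ancestor related to HNF4, the mammalian regulator of liver and gut metabolism, and a small set of receptors has counterparts in insects and mammals. In the worm they are known for roles in fat metabolism, detoxification, moulting and developmental timing, while many members have no described function. EFL-1 is an E2F-family factor that acts with its partner DPL-1 and the DREAM complex at genes of the cell cycle.

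Since the files were peak lists without counts of reads, library depth is unknown. One label gives efl-1 as the antibody and another gives eGFP-efl-1 as the target, so whether GFP or EFL-1 itself was precipitated is not known. The reproducible list held 3824 peaks, ranked from 1 (strongest) by the authors' score, whose scale is not stated and which runs from 35.7 at the weakest peak upwards. A peak of this list need not have an entry in each replicate list. Intervals given here are 95% Wilson intervals, and they cover counting error over genes only. Neighbouring and related genes are not independent, and no test of the family against other genes was run. Shares over all protein-coding genes include the nhr genes.

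Few nhr promoters held a reproducible EFL-1::GFP peak. A summit lay in the promoter of 18 of the 269 genes (6.69%, interval 4.27% to 10.3%), against 14.8% of all protein-coding genes, a share outside that interval. The peaks were also weak. The bound nhr genes had a median score of 52.2 (quartiles 42.3 and 64.3), whereas the median over all 2947 bound genes was 169 (quartiles 82.0 and 466). The nhr median was thus 0.309 times that of all bound genes, and with the strongest 3824 entries of a single library it was 0.544 times it in replicate 1 and 0.320 times it in replicate 2. These medians are over genes, so a peak in several promoters counts once for each. Such sharing was found at 45.6% of all bound genes and 11.1% of the bound nhr genes. Over the 3824 reproducible peaks, each counted once, the median score was 101. Only nhr-47 and nhr-49 scored above 100, which is 11.1% of the bound nhr genes and was reached by 67.2% of all bound genes.

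The strongest nhr promoter peak was at nhr-47 (WBGene00003637) on chromosome V, a receptor gene whose summit lay at −20 bp from its start. It scored 373 in the reproducible list (rank 718), with 19.9 in the replicate 1 list (rank 1485) and 360 in the replicate 2 list (rank 662). Scores of separate lists need not share a scale, so ranks are the values to set side by side. The same summit lay in the promoter of the neighbour dnj-19, a DnaJ-type chaperone gene, though the start of nhr-47 was the nearer one. It was the only nhr promoter peak among the strongest 20% of the reproducible list, and the only one of the 18 whose width differed from 336 bp. That width was shared by 54.6% of all reproducible peaks.

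The next peak was at nhr-49 on chromosome I, which encodes an HNF4-related regulator of fatty acid oxidation and desaturation. Its score was 109 (rank 1804), with 19.6 (rank 1513) in replicate 1 and 95.4 (rank 1839) in replicate 2, and the summit lay −343 bp from the nearest of its 6 annotated starts. The genes nhr-256 and nhr-78 followed a like pattern. For nhr-256 the score was 83.5, and the ranks were 1652 in replicate 1 and 2455 in replicate 2. For nhr-78 the score was 67.0, and the ranks were 1952 and 2850 in replicates 1 and 2. These 4 genes had an entry among the strongest 3824 of both libraries.

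At nhr-41 and nhr-80 the replicates were far apart. The gene nhr-41 encodes the counterpart of the mammalian TR2 and TR4 receptors, and its peak, −349 bp from a start and inside an intron of another transcript, scored 80.5. It ranked 2314 in replicate 2 but 20217 in replicate 1. The gene nhr-80 encodes a receptor that promotes fatty acid desaturation, and its peak at −136 bp scored 54.8, with rank 3222 in replicate 2 and 22615 in replicate 1. In the replicate 1 list these entries had a −log10 q of 0.146 and 0.130.

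The peak of nhr-101 (score 56.0) had its summit at −500 bp, on the edge of the promoter window, and lay nearer to the start of pms-2, a mismatch repair gene. Just outside the window, the summit near nhr-142 lay at −520 bp and scored 263. At nhr-135 (54.6) replicate 1 gave its highest rank among the 18 peaks, 1298, and replicate 2 gave rank 3310. The remaining 10 promoter peaks scored between 36.0 and 53.5, and were at nhr-119, nhr-87, nhr-228, nhr-50, nhr-134, nhr-35, nhr-156, nhr-104, nhr-56 and nhr-42. In this group nhr-119, nhr-87, nhr-228, nhr-35 and nhr-104 had no overlapping entry in the replicate 1 list at all.

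**Figure D1:**
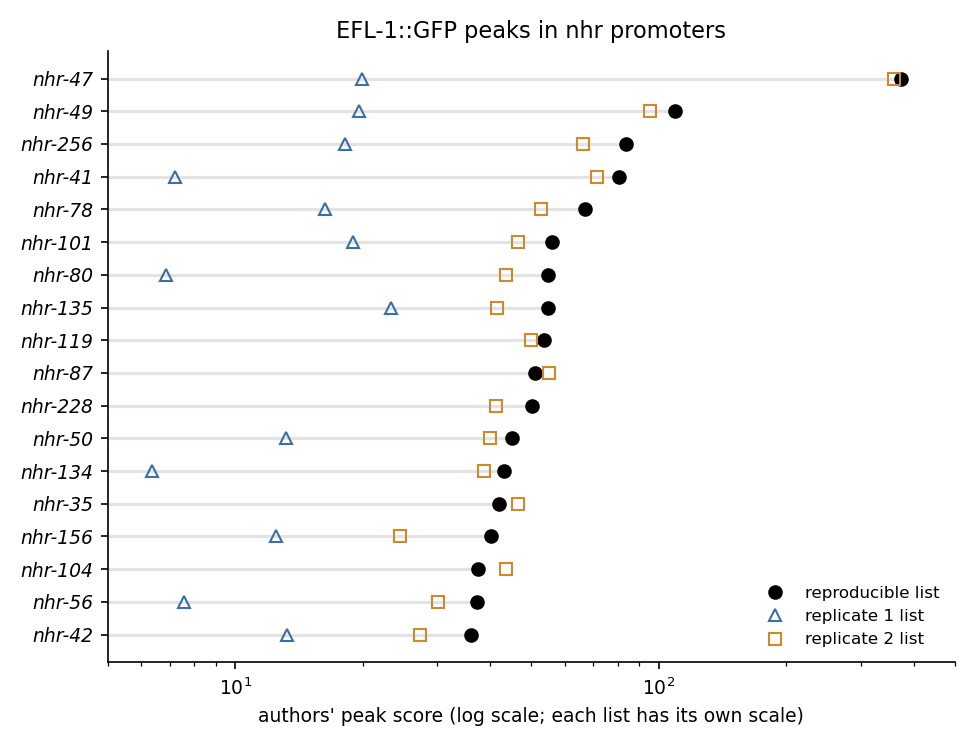
Score of each of the 18 reproducible EFL-1::GFP peaks in nhr promoters (black circles), with the overlapping entry of the replicate 1 list (triangles) and of the replicate 2 list (squares), on a log axis of the authors' score, each list with its own scale. The peak of nhr-47 stands apart at 373, the other 17 run from 36.0 to 109, and 5 genes have no replicate 1 triangle.

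Over all 18 peaks, every one had an entry in replicate 2 with a −log10 q above 2, at ranks from 662 to 4636 with a median of 3146.5. In replicate 1, 13 had an overlapping entry, at ranks from 1298 to 26447 with a median of 3200, and 0 had one with a −log10 q above 2. Among all bound genes, 47.0% had such a replicate 1 entry at their strongest promoter peak and 99.9% such a replicate 2 entry. A replicate 1 entry of any q overlapped that peak at 72.2% of the bound nhr genes and 86.8% of all bound genes. Across the 13 peaks with an entry in each list, the scores of replicates 1 and 2 had a Spearman's rho of 0.456. That value is a description, since the points share their 2 libraries.

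The bound nhr genes sat at the weak end of the list. Of the 18, 1 had its strongest promoter peak among the strongest 20% of reproducible peaks, 0 in the next 20%, 3 in the middle 20%, 6 in the fourth and 8 in the weakest 20%. Over all 2947 bound genes the order ran the other way, with 934, 758, 539, 401 and 315 genes from the strongest to the weakest class. The nhr genes thus made up 0.107% of bound genes in the strongest class and 2.54% in the weakest. Genes that share a peak were each counted, so the classes hold equal numbers of peaks but not of genes. In share of all 269 members, 0.372% had a promoter peak of the strongest class, against 4.68% of all protein-coding genes.

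**Figure D2:**
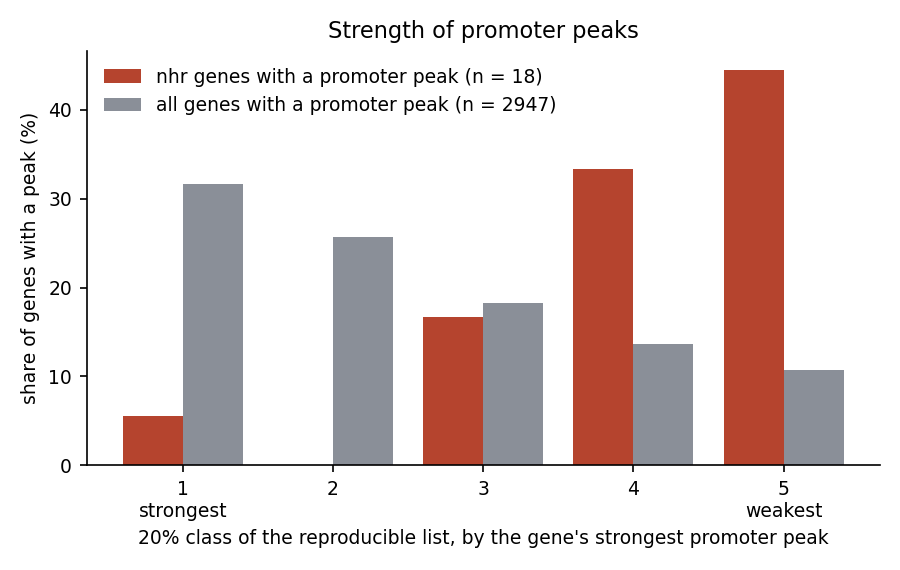
Share of the 18 bound nhr genes (red, left) and of all 2947 bound genes (grey, right) whose strongest promoter peak fell in each 20% of the reproducible list, from strongest to weakest. The nhr genes reach 44.4% in the weakest class, where all bound genes are at 10.7%.

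The pooled list, which holds both libraries' data and goes on past the reproducible peaks to background, showed how the gap between the family and other genes changed with peak strength. Among its strongest 500 entries, 0 nhr promoters held a summit, although 597 protein-coding promoters (2.99%) did. With the strongest 2000 entries the shares were 0.743% of nhr genes and 10.2% of all genes. At the length of the reproducible list they were 6.69% and 14.8%, and with 10000 entries 19.0% and 21.3%. The first pair is the same as in the reproducible list. The weakest of these 3824 pooled entries scored 35.7, as did the weakest reproducible peak, so the lists are not independent and the match adds no support. Each of the 18 nhr promoter peaks had the same score and rank in the reproducible and pooled lists. With all 28550 entries, 93 nhr promoters (34.6%, interval 29.1% to 40.4%) held a summit, against 33.2% of all promoters. Of these 93 genes, 75 had no reproducible promoter peak. Over all protein-coding genes, 6633 had a pooled promoter summit and 2947 a reproducible one. In the pooled list over all chromosomes, the low share of nhr promoters was therefore seen among the strong entries, and was not seen once the weak ones were counted. With every entry of a single library the shares were 21.6% against 30.1% in replicate 1 and 37.5% against 33.9% in replicate 2. By chromosome, the nhr share over all pooled entries was above that of all genes on some and below it on others.

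**Figure D3:**
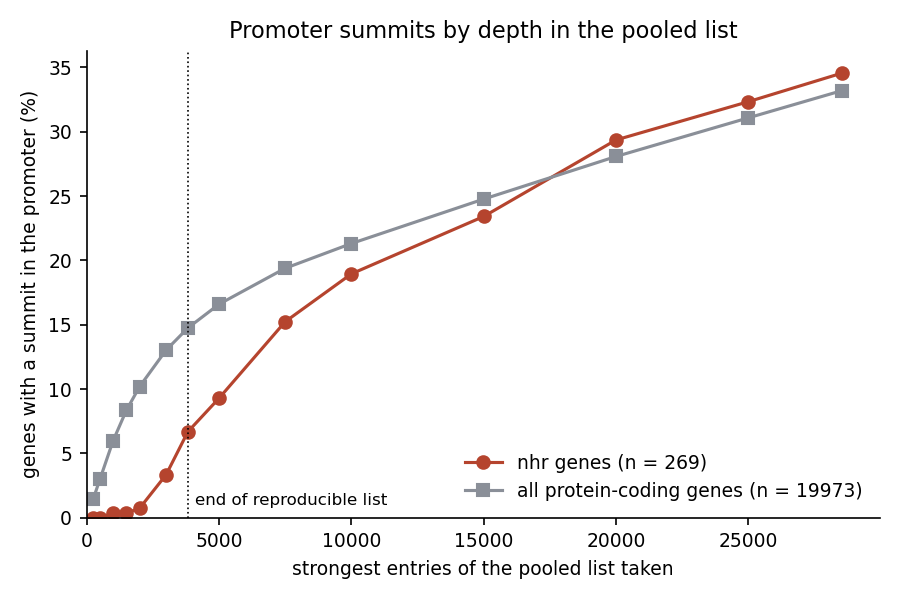
Share of nhr genes (red circles) and of all protein-coding genes (grey squares) with a promoter summit, against the number of strongest pooled-list entries taken. The nhr curve starts near 0, stands at 6.69% against 14.8% at the end of the reproducible list (dotted line), and meets the other between 15000 and 20000 entries.

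The replicate lists gave the same order with fewer shared genes. With the strongest 3824 entries of replicate 1 alone, 10 nhr promoters were bound (3.72%), against 11.8% of all genes, and 7 of the 10 were among the 18. With those of replicate 2 alone there were 17 (6.32%), against 14.8% of all genes, and 14 of the 17 were among the 18. The libraries shared 6 of these nhr genes, namely nhr-47, nhr-49, nhr-50, nhr-78, nhr-135 and nhr-256. That is 60.0% of the replicate 1 genes and 35.3% of the replicate 2 genes, where over all genes the shares were 87.8% and 70.0%. These shares also depend on summits at the window's edge. The peak of nhr-101 ranked 1563 and 3071 in replicates 1 and 2, but its replicate 2 summit was outside the window. Replicate 1 alone added nhr-108, nhr-137 and nhr-142, and replicate 2 alone added nhr-1, nhr-86 and nhr-182. At nhr-142 the entry overlapped the reproducible peak at −520 bp, which is in the promoter of F44E7.9. That peak ranked 896 in replicate 1 and 943 in replicate 2, but its summit was in the nhr-142 window with replicate 1 alone. Counting every entry of a list, promoter summits were present at 58 nhr genes in replicate 1 (21.6%), against 30.1% of all genes, and at 101 in replicate 2 (37.5%), against 33.9%. Either list had an entry at 124 nhr promoters (46.1%), against 45.3% of all genes, and each of the lists at 35 (13.0%), against 18.7%.

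At a −log10 q above 2 the libraries differed more. Replicate 1 then had 1 nhr promoter (0.372%), that of nhr-142, against 6.94% of all genes. Its entry overlaps the reproducible peak in the promoter of F44E7.9. Replicate 2 had 74 (27.5%), against 24.7% of all genes. The limit admitted 1386 genes in replicate 1 and 4934 in replicate 2, so these shares do not measure a difference in binding between the libraries.

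By chromosome, the share of nhr promoters with a reproducible summit was below that of all genes on each of the 6, although on X it was above it with replicate 2 alone. Chromosome V, the home of most of the family, had 10 of 167 (5.99%, interval 3.28% to 10.7%), against 9.53% of all its genes. Those 10 were nhr-47, nhr-256, nhr-101, nhr-135, nhr-228, nhr-50, nhr-134, nhr-156, nhr-56 and nhr-42. Chromosome IV had 4 of 33 (12.1%), against 14.3%, with nhr-41, nhr-78, nhr-87 and nhr-104. Chromosome I had 1 of 23 (4.35%, interval 0.772% to 21.0%), that of nhr-49, against 23.5%. Chromosome II had nhr-119 alone of 15 (6.67%), against 14.7%. Chromosome III had nhr-80 alone of 8 (12.5%), against 24.5%, and X had nhr-35 alone of 23 (4.35%), against 6.37%. Only on chromosome I did the share of all genes lie outside the nhr interval. With the strongest 3824 entries of replicate 1, chromosome V had 7 bound nhr promoters (4.19%), against 7.11% of all its genes, and with those of replicate 2 it had 8 (4.79%), against 9.31%. Chromosome IV had 1 (3.03%), against 11.9%, with replicate 1 and 4 (12.1%), against 14.8%, with replicate 2. Chromosome X had 1 (4.35%), against 4.72%, with replicate 1 and 2 (8.70%), against 6.88%, with replicate 2. With replicate 1, chromosomes II and III had 0, against 12.3% and 19.9% of their genes.

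The share for all genes differs between chromosomes and is low on V. If each nhr gene had the share of all genes on its chromosome, 31.7 nhr promoters (11.8%) would hold a summit, and 29.9 (11.1%) with the share of its own part of the chromosome, each cut into 3 equal parts. The observed 18 are below both. In the right-hand part of chromosome I, 0 of 17 nhr genes were bound, against 18.8% of all genes there. Some of these 17 lay in stretches without any entry, described at the end. The nhr share was the higher one in the left parts of IV (30.8% against 15.5%), II (11.1% against 9.31%) and X (33.3% of 3 genes against 6.54%). In every other part with nhr genes it was the lower one. In the pooled list with every entry counted, nhr promoters on V held a summit in 34.1% of cases, against 25.4% of all V genes. On X the shares were 47.8% and 25.9%, and on I they were 17.4% and 42.8%.

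**Figure D4:**
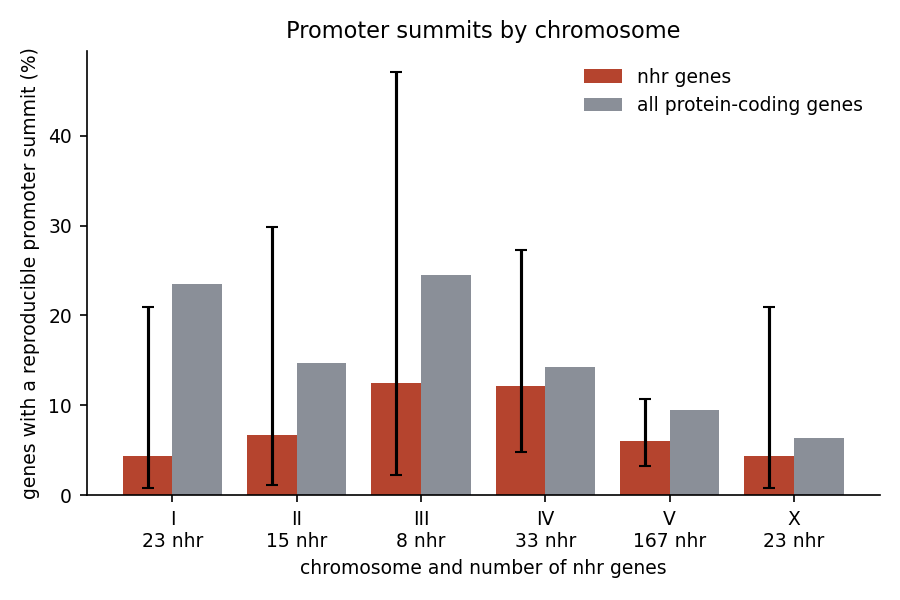
Share of nhr genes (red, left, with 95% Wilson intervals) and of all protein-coding genes (grey, right) with a reproducible promoter summit on each chromosome, with the number of nhr genes below. The nhr bar is the lower of the pair on each chromosome, by most on I (4.35% against 23.5%).

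In position, the bound nhr promoters had summits from −500 to +18 bp of a start, with a median of −109 bp, and over all bound genes the median was −173 bp. Of the 18 summits, 17 had the nhr gene's own start as the nearest one. Of all 2947 bound genes, 2274 kept a promoter summit when each summit counted for its nearest start only. The summit was also in another gene's promoter at 2 of the 18 (11.1%), against 45.6% of all bound genes. Around the most upstream start, a reproducible summit lay in the 250 bp before it in 3.35% of nhr genes, against 8.89% of all genes. In the 250 bp bin after it the shares were 1.12% and 0.846%. With every pooled entry counted, the shares in the bin before the start were 14.9% and 17.2%, and those in the bin after it were 10.8% and 5.97%.

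**Figure D5:**
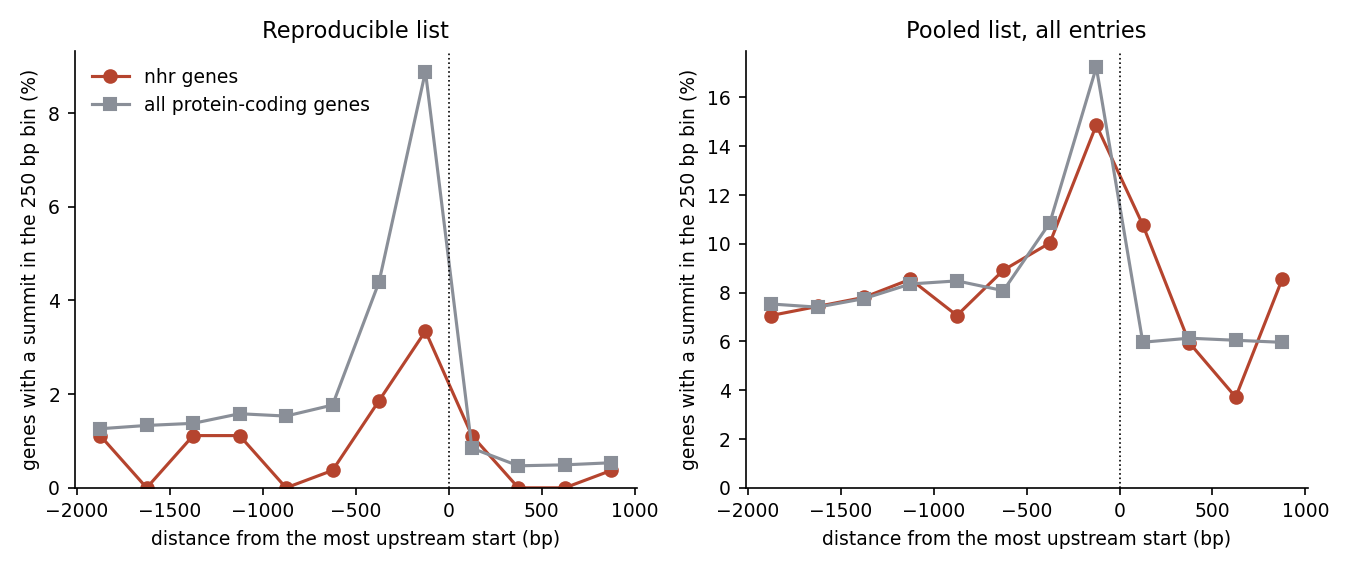
Share of nhr genes (red circles) and of all protein-coding genes (grey squares) with a summit in each 250 bp bin around the most upstream annotated start, in the reproducible list (left) and in the pooled list with all entries (right). The reproducible peak just before the start reaches 3.35% for nhr genes and 8.89% for all genes, and in the pooled list the lines lie close together upstream of the start.

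The letters under the summits were examined for cores bound by E2F factors and by the DREAM subunit LIN-54. Within 50 bp of the summit, on both strands, TTCCCGC or TTGGCGC (E2F-like) was present at 1 of the 18 promoter peaks (5.56%), against 9.57% of all reproducible peaks. In windows of the same length centred 150 bp upstream of every gene's most upstream start the share was 2.03%. The longer forms TTTCCCGC, TTTGGCGC and GGCGGGAA, which hold or overlap these cores, were also searched, and the first and the last occurred once each, at the same peak. TTTGAA or TTCGAA (CHR-like) was present at 4 of 18 (22.2%), against 34.4% of all peaks and 34.1% of the promoter windows. Both shares changed with peak strength. E2F-like cores were at 16.6% of peaks in the strongest class given above and 6.01% in the weakest, and CHR-like cores at 59.2% and 28.6%. Of the 18 nhr promoter peaks, 8 were in the weakest class and 1 in the strongest. The shares over all peaks are therefore not matched to the nhr peaks in strength. Of the 18 peaks, 14 held none of these cores, which says only that these letters were not in these windows. The sequences shown are those of the strongest peak and of the 4 peaks with a core, each 30 bases of ce11 read on the strand of the nhr gene. Capitals mark the core or its reverse complement, and for nhr-47, which has none, the run surrounds the summit.
nhr-47, chrV:5505219-5505248, plus strand: gaaacgcgccagcatccaataacgcgtcag
nhr-80, chrIII:15007-15036, minus strand: ttctacagtttgGCGGGAAattcaaatttt
nhr-50, chrV:16000562-16000591, minus strand: ctggggaaatttgTTTGAAtttttgcaggt
nhr-104, chrIV:4788590-4788619, minus strand: aaagtttgcatcaTTTGAAtagacagtgta
nhr-56, chrV:2219046-2219075, plus strand: ctatttgcactTTTGAActtttctttcaca

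The nhr-80 window was the only promoter peak with an E2F-like core, centred −16 bp from the summit on the gene's strand, and a CHR-like core (TTCAAA, the reverse complement of TTTGAA) follows it in lower case. The peak scored 54.8, where the median of the 18 was 52.2.

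Another run of letters recurred under the weak peaks and was picked after the sequences were seen, so its counts are a description. The run CTGCGTCTC was within 50 bp of the summit at 5 of 18 nhr promoter peaks (27.8%), in each case on the strand of the gene. Over all reproducible peaks, on both strands, it was present at 10.5%, with 6.54% in the strongest 20% and 11.0% in the weakest 20%, and in 1.25% of the promoter windows. A run of CTCTCT, which can overlap it, was present at 7 of 18 (38.9%), against 20.3% of all peaks and 6.78% of the windows. It was at 10.1% of the strongest 20% of peaks and 27.5% of the weakest 20%. The windows below show the 5 promoters, with GCGTCT in capitals.
nhr-256, chrV:1743714-1743743, plus strand: cgttttgtgtctGCGTCTctcattgatttg
nhr-119, chrII:2800994-2801023, minus strand: ctcttcttctctGCGTCTctcaccctctct
nhr-87, chrIV:1623950-1623979, plus strand: tcttctttctctGCGTCTcttctctctcac
nhr-134, chrV:2231089-2231118, plus strand: cttttacaccctGCGTCTctccatgtcttc
nhr-42, chrV:6998441-6998470, plus strand: cttttgcactctGCGTCTctctttgccaat

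The median GC content within 50 bp of the 18 summits was 41.1%, and it was 45.5% over all reproducible summits. The number of annotated starts, which sets how much sequence counts as promoter, averaged 1.70 per nhr gene and 1.49 per protein-coding gene.

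A reproducible summit lay within 2 kb upstream of a start at 30 nhr genes (11.2%, interval 7.92% to 15.5%), against 21.8% of all genes. Of these, 18 were the genes with a promoter peak and 12 had none, 4.46% of the family, and 9.05% of all genes had an upstream summit outside the promoter. At 6 of the 12 the summit was in another gene's promoter, and at 5 the nhr start was the nearest. The like counts over all genes are not given here, so neither can be read as a trait of the family. With the strongest 3824 entries of replicate 1 the upstream count was 24 (8.92%), against 18.8% of all genes, and with those of replicate 2 it was 31 (11.5%), against 22% of all genes. With every pooled entry it was 146 (54.3%), against 54.9%.

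The 3 strongest upstream peaks were stronger than any nhr promoter peak other than that of nhr-47, and each was in a neighbour's promoter. The summit at nhr-142 (263, rank 920) was in that of F44E7.9. The summit at nhr-15 (249, rank 965) was in that of phf-10, a PHD-finger gene, at −1051 bp from nhr-15. The summit at nhr-8 (188, rank 1183) was in the promoters of mrpl-1, mrps-24 and emc-6, the first pair of which encode mitochondrial ribosomal proteins. The gene nhr-8 encodes a receptor of cholesterol homeostasis and drug resistance related to DAF-12, and the peak lay −1074 bp from its start. All 3 had a replicate 1 entry with a −log10 q above 2, at ranks 896, 1105 and 1076.

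The upstream peaks nearest to an nhr start of their own were at nhr-85, nhr-10, nhr-34, nhr-70 and nhr-20. The gene nhr-85 encodes the counterpart of fly E75 and mammalian REV-ERB, and acts in moulting and larval timing. Its peak scored 173 (rank 1250), with rank 1250 in replicate 1 and 1296 in replicate 2, and lay −1026 bp from an internal start, inside an intron of the longer transcript. Both an E2F-like and a CHR-like core were within 50 bp of this summit. The gene nhr-10 encodes an activator of the propionate shunt, and its peak at −1432 bp scored 76.0, with ranks 8585 and 2503 in replicates 1 and 2. A peak near nhr-280 (153) was nearest to the start of pals-22, and one near nhr-86 (71.5), a receptor that senses a bacterial metabolite, was in the promoter of lbp-9, a lipid-binding protein gene. At nhr-63 and nhr-107 the upstream summits were the promoter peaks of the nhr genes beside them, nhr-50 and nhr-42.

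Introns of 6 nhr genes held 7 reproducible summits (2.23%, interval 1.03% to 4.78%), against 2.5% of all genes, so the family's share was close to the background. With the strongest 3824 entries of replicate 1 the count was 11 (4.09%), against 3.43%, with those of replicate 2 it was 5 (1.86%), against 2.47%, and with every pooled entry 74 (27.5%), against 23.9%. The median length of nhr genes was 2309 bp, and that of all protein-coding genes 2027 bp. The strongest was that of nhr-85, followed by nhr-19 (147, rank 1425), at +1634 bp from the nearest start, with ranks 1209 and 1383 in replicates 1 and 2. The peak of nhr-46 scored 87.9, at +3706 bp. The gene nhr-34 held a pair of intron peaks, with scores of 63.0 and 39.0, both also upstream of one of its internal starts. The peaks of nhr-3 (37.5) and of nhr-31 (36.9), which acts in growth of the excretory cell tubule, were near the end of the list. None of the 7 intron summits was in another gene's promoter. In all, 34 of the 269 genes had a reproducible summit at any of the 3 kinds of place (12.6%), against 23.2% of all genes, and 235 had none.

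Among 11 receptors with counterparts in insects and mammals, nhr-41 alone had a promoter peak (9.09%), against 14.8% of all genes, and nhr-8 and nhr-85 had a summit at another place. Those without any were nhr-6 (NR4A group), nhr-23 (ROR and fly DHR3), nhr-25 (SF-1, LRH-1 and fly Ftz-F1), nhr-48, nhr-67 (TLX and fly tailless), nhr-91 (GCNF), nhr-111 and nhr-239. In the pooled list nhr-6 had a promoter entry with a score of 11.8 and nhr-23 with 9.11, at ranks 13254 and 21309 of that list. Among the 258 members outside this group, 17 had a promoter peak (6.59%), against the same 14.8%.

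Of 16 receptors of metabolism and detoxification, nhr-49 and nhr-80 had a promoter peak, nhr-8, nhr-10 and nhr-86 an upstream summit alone, and nhr-31 an intron peak. The 2 promoter peaks are 12.5% of the list, against 14.8% of all genes. In the pooled list, 10 of the 16 had a promoter entry, against 33.2% of all genes. Those of nhr-13 (17.8), nhr-114 (15.3), nhr-66 (15.0), nhr-68 (13.0), nhr-64 (12.7), nhr-45 (10.7) and nhr-31 (7.81) were below the reproducible list, as was that of nhr-86 (30.5). The 5 genes of moulting and larval timing were nhr-23, nhr-25, nhr-41, nhr-67 and nhr-85. Of these, nhr-41 had a promoter peak and nhr-85 a summit at another place. None of nhr-2, nhr-25, nhr-40 and nhr-60, which act in the embryo, had a reproducible summit at any of the 3 kinds of place. Over all genes, 14.8% had a promoter peak and 23.2% a summit at any of these places. The moulting and embryo lists are too short to be set against those shares.

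Nuclear receptors with other names had no reproducible summit at any of these places either. These were daf-12, the receptor of dafachronic acids that controls dauer entry, fax-1, odr-7 and unc-55, which specify neurons, and sex-1, which reads the X-chromosome dose. Of 8 genes of receptor coregulators and hormone synthesis, 2 had a promoter peak, where 14.8% of all genes had one. Lists of 5 and 8 genes are too short to be set against that share. The 2 with a promoter peak were din-1, which encodes a corepressor of DAF-12 (53.6), and cbp-1, the worm's CBP acetyltransferase (46.1). These promoter peaks ranked 2945 and 3141 in replicate 2. In replicate 1 that of din-1 had no overlapping entry and that of cbp-1 ranked 9963. At cbp-1 a stronger peak lay −900 bp from the start (351, with ranks 714 and 759 in replicates 1 and 2), and at din-1 a further 3 summits lay upstream of internal starts, the strongest at 118. The Mediator subunit gene mdt-15, the NCoR-like gene gei-8 and the hormone synthesis genes daf-9, daf-36, hsd-1 and dhs-16 had none.

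The nhr promoters that came closest to the reproducible list were those of nhr-182, nhr-58 and nhr-1. The pooled scores were 35.4 at nhr-182 (rank 3848), 33.1 at nhr-58 (rank 4007) and 32.2 at nhr-1 (rank 4068), where the weakest reproducible peak scored 35.7 and the weakest nhr promoter peak, that of nhr-42, 36.0. All 3 had a replicate 2 entry, at ranks 3644, 4328 and 2652, and no overlapping replicate 1 entry. Of the 269 nhr promoters, 140 (52.0%) held no entry of any list used here, against 52.9% of all promoters.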

How the data were processed

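According to text files that accompany the libraries, peaks and background were called by the authors for each replicate and for the pooled alignments, against a shared control. An optimal list passing an irreproducible discovery rate threshold is called reproducible here. For the caller, the aligner and the threshold, names and values are not given in the sources used here. The control library was not analysed here. The authors' deposited score (column 7) ranked peaks within each list, the −log10 of a q-value (column 9) was deposited by the authors' caller, and the summit came from column 10. The 4 lists in ce11 were used.

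Genes and starts came from Ensembl release 115 (WBcel235, the ce11 sequence) and sequence from the RefSeq copy of that assembly. A summit could count for several genes. A peak's replicate entry was the strongest one overlapping it by at least 1 bp. The assignment of summits was tested on simulated data. Python 3.11.15, pandas 2.3.3, numpy 2.4.6 and scipy 1.17.1 were used.

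The members, gene lists and comparisons were chosen with earlier results of these data known. Named genes were all members with a promoter peak, the 6 strongest upstream and intron genes, the listed genes and the 3 members next below the reproducible list. Any other gene was picked for mention with its values in view. Alternatives were other lists, thresholds, promoter widths and assignments. The p-value of no test is given, because 1 group allows no comparison of conditions.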

Additional observations from a re-analysis of the deposited data

How the results depend on the processing

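The 18 nhr genes with a promoter peak became 10 with replicate 1 alone and 17 with replicate 2 alone, and the genes with an upstream summit (30) became 24 and 31. Those with an intron peak (6) became 11 and 5. The bound nhr median was 0.309 times that of all bound genes, with 0.544 and 0.320 in the replicates. With the stronger 50% of reproducible peaks the counts were 2 promoter, 7 upstream and 2 intron genes and the ratio was 0.775. The promoter share was then 0.743%, against 9.85% of all genes. For the upstream and intron counts of that setting, shares over all genes are not given here. With any pooled entry the counts were 93, 146 and 74 and the ratio was 0.613, and both selections act on the score itself. Upstream summits outside the gene's own promoter were at 12 genes. The count of promoter genes was 12 to 19 with wider or narrower promoters, the most upstream start, the nearest start or any base of the peak. In these settings, and with either replicate alone or the stronger 50%, the nhr share was below that of all genes (0.0755 to 0.555 times it), and with any pooled entry it was 1.04 times it. By chromosome, with either replicate alone, the counts were 1 on I, 0 to 1 on II, 0 to 1 on III, 1 to 4 on IV, 7 to 8 on V and 1 to 2 on X. With replicate 2 alone the X share (8.70%) was above that of all X genes (6.88%). The causes were not tested. No depth is known, so a promoter without a peak is not shown to be unbound.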

Other observations

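On the left part of chromosome V, 3 of the bound promoters lay close together. The summits of nhr-56, nhr-134 and nhr-228 spanned 62696 bp, a stretch chosen after the values were seen, and 12 nhr genes ran from the first to the last. Their scores were 37.3, 43.0 and 50.2. In the pooled list 3 more of the 12 had a promoter entry, namely nhr-182 (35.4), nhr-59 (13.7) and nhr-183 (9.47). The other 6, which were nhr-128, nhr-103, nhr-18, nhr-126, nhr-96 and nhr-275, had none in that list. Of all genes in the left part of V, 8.69% had a reproducible promoter summit, and 25.4% of all V genes had a pooled promoter entry. The stretch was set by its bound ends, so its counts cannot be compared with these shares. In replicate 1, nhr-56 ranked 17782 and nhr-134 ranked 26447, and nhr-228 had no overlapping entry.

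Several nhr genes lay in stretches of the genome without any entry. There were 114 stretches of at least 20000 bp with no entry in the pooled or replicate lists, and 12 nhr genes (4.46%) were wholly inside 4 of them, against 2.90% of all genes. On chromosome I, a stretch of 39105 bp held nhr-73, nhr-74, nhr-259 and nhr-244, one of 21904 bp held nhr-113 and nhr-245, and one of 32388 bp held nhr-81, nhr-165 and nhr-217. On chromosome II a stretch of 24001 bp held nhr-72, nhr-257 and nhr-261. The share of 31-base words that occur elsewhere in the genome was 53.7%, 54.7%, 2.51% and 13.3% in these 4 stretches in that order, and 8.73% over the 6 chromosomes. The part of repeated sequence in the missing entries was not tested. Over all nhr promoters the repeated share averaged 4.22%, against 4.98% over all promoters, and 16 of the 18 nhr promoter peaks held no repeated word.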
